A study of Mus musculus with 8 samples.

Results

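The genes described here encode proteins of the spliceosome, the machine that removes introns from nuclear transcripts, and they were chosen as the splicing genes closest to NIPP1. NIPP1, encoded by Ppp1r8, is a nuclear regulator of protein phosphatase PP1. Members were the protein-coding genes whose GENCODE M21 symbols begin with Sf3a, Sf3b, Srsf, Prpf, Snrp or Snrnp, together with Cdc5l, Plrg1, Bcas2, U2af1 and U2af2. This gave 57 genes of 46983 gene identifiers in the count table. Of these, 56 had enough counts to be tested, and Srsf12 did not.

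Tail epidermis, freed from dermis with dispase, was the source of the sequenced RNA, and each library came from a different mouse of 8 weeks of age. The 4 KO mice had the genotype K14-Cre/+ Ppp1r8 fl/-, and the 4 CTR mice had the genotype K14-Cre/+ Ppp1r8 fl/+. The strain combined the Cre line Tg(KRT14-cre)1Amc/J with the alleles Ppp1r8tm1Ave and Ppp1r8tm1.1Itl. Both groups therefore carried the Cre transgene and 1 floxed Ppp1r8 allele, and they differed in the other allele, which was null in KO mice and wild-type in CTR mice. The K14 promoter drives Cre in basal keratinocytes and their progeny, so cells of other types in the sheet keep their floxed allele. Where Cre deletes the floxed allele, CTR cells keep 1 wild-type Ppp1r8 allele and KO cells keep none.

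The spliceosome is built from small nuclear ribonucleoproteins (snRNPs), each a small nuclear RNA with its own proteins. U1 marks the start of the intron, U2 with SF3a, SF3b and U2AF marks the branch point and the end of the intron, and the U4/U6.U5 tri-snRNP and the PRP19-CDC5L complex join to form the active enzyme. SR proteins bind exons and recruit these parts. NIPP1 lies in nuclear speckles with splicing factors, and its forkhead-associated domain is known to bind phosphorylated CDC5L and SF3B1.

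Promoter sequences are shown for genes on which the results turn: the 3 SF3a subunits, of which 1 fell and the others rose, Snrnp25, which changed most, and Cdc5l, the NIPP1 ligand that rose. Each is the 250 bases before the RefSeq start of the gene, taken from RefSeq on GRCm38.p6 and written 5′ to 3′ on the strand of the gene. For Sf3a2 the RefSeq start lies 537 bases from the GENCODE start, so its stretch falls within the GENCODE gene. Part of that stretch also lies within the gene Plekhj1, on the opposite strand. For Sf3a1, Sf3a3 and Cdc5l the 2 starts lie 4, 85 and 30 bases apart. Capitals mark matches to any of 3 motifs on either strand. The ETS core was searched as CCGGAAG. The CCAAT box was searched by the letters of its name. The GC box was searched as GGGCGG, and no match shown overlaps another.
Sf3a1 (chr11:4160104-4160353, plus strand): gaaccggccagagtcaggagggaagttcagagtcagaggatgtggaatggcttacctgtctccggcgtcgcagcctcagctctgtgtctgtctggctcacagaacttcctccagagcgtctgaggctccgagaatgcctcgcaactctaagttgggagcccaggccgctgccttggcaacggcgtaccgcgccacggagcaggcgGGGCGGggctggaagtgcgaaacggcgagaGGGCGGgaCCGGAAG
Sf3a2 (chr10:80798485-80798734, plus strand): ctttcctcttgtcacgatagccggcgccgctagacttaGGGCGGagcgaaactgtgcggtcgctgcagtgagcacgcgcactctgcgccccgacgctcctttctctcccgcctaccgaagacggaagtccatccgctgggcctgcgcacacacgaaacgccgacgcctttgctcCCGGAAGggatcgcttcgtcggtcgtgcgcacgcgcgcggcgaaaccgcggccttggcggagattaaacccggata
Sf3a3 (chr4:124714611-124714860, plus strand): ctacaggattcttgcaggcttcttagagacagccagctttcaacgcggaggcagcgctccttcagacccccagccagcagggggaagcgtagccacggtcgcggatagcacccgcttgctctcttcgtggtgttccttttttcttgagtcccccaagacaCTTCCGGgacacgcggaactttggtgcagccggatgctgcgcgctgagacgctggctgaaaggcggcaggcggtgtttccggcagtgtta
Snrnp25 (chr11:32205165-32205414, plus strand): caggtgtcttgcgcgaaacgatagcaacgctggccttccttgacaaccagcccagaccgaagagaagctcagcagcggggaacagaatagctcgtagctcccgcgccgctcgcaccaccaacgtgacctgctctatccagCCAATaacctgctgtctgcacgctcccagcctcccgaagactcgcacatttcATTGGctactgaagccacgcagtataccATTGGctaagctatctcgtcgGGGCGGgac
Cdc5l (chr17:45433708-45433957, minus strand): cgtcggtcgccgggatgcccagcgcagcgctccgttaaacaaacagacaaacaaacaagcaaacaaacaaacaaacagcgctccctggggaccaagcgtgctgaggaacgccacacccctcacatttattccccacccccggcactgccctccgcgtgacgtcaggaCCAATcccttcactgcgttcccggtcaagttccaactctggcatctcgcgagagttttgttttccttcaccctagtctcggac

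All 3 SF3a promoters held the ETS core, on the reverse strand in Sf3a3. Of 49 members with a promoter in the reference table, 17 (34.7%) held that core within the 250 bases, against 6.90% of 32817 promoters of all kinds of genes. Of these 17 genes, 4 rose (Sf3a2, Sf3a3, Sf3b6 and Snrpb2) and 4 fell (Sf3a1, Sf3b3, Srsf11 and Srsf5). Over all genes tested, 11.5% rose and 12.2% fell. Whether the core is related to the changes was not tested. The GC box was in 65.3% of member promoters and in 32.7% of all, and the CCAAT box in 36.7% and 33.8%. The E-box (CACGTG) was in 8.16% and 6.02%, and the YY1 core (AAGATGGC) in 0 members and in 1.56% of all promoters. For members, only the promoter nearest the GENCODE start of the gene was used, while the 32817 promoters were taken with no such choice. The sets were not matched for level or base content. A match here is a match of letters only.

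Library totals ranged from 16696212 to 21571935 counts. Libraries were compared on CPM, the counts of a gene scaled to a common library size by trimmed means (TMM). A gene is said to have risen or fallen in KO epidermis where edgeR's quasi-likelihood test, adjusted over all 15638 genes tested by the Benjamini-Hochberg method, gave an adjusted p below 0.05. All adjusted p-values below come from that test unless another is named. Keratinocyte markers were abundant in every library, with sums over 12 genes of 74000 to 91700 CPM in KO and 49700 to 55700 CPM in CTR. All 4 Y-linked genes examined (Ddx3y, Uty, Kdm5d and Eif2s3y) had 0 counts in all 8 libraries. In bulk tissue, fewer cells of a type and less RNA per cell cannot be told apart.

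Ppp1r8 itself had 35.4, 28.4, 34.3 and 47.4 CPM in KO 1 to 4, against 40.4, 34.7, 41.6 and 35.0 CPM in CTR 1 to 4. The groups overlapped, and the log2 fold change was -0.06 (SE 0.14, 95% interval -0.38 to 0.26, adjusted p = 0.789). A count over all exons of a gene does not tell whether an allele with a deletion still gives a partial transcript, so this value does not check the genotype.

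KO epidermis had small changes in splicing genes in both directions and close to no change in their sum. Of the 56 members tested, 8 rose, 5 fell and 43 did not pass the threshold. This is 23.2% of members, beside 23.7% of all genes tested, so the share of members that changed was near the background. The count was 7 (12.5%) without KO 4 and 8 (14.3%) without CTR 1 or CTR 3, and the share of all genes was lower in the same fits, at 16.3%, 17.5% and 16.9%. Those that rose numbered 5 without KO 1, 3 without KO 4 and 4 without CTR 1, CTR 2 or CTR 3. Split by direction, the background was 11.5% of genes higher and 12.2% lower. Members are abundant genes, and above a mean of 10 CPM the background was 24.6%, against 24.5% of the 53 members at that level. The summed level of all members was 4764, 4593, 4456 and 4796 CPM in KO 1 to 4 and 4685, 4459, 4655 and 4742 CPM in CTR 1 to 4, and the groups overlapped.

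The changes were small beside those of all genes tested, which were not matched to the members for level. Log2 fold changes of members ran from -0.38 (Srsf11) to 0.66 (Snrnp25), with a median of 0.04, beside a median of 0.0 over all genes tested. Only Snrnp25 differed by at least 1.5-fold (1.79% of members), against 16.4% of all genes tested, and 0 members differed by at least 2-fold, against 7.14% of all genes. The sets differ in level, with a mean of at least 10 CPM for 53 members and for 10023 of all genes tested. The sizes of change were not compared at matched levels. KO and CTR libraries did not overlap for 12 members, 7 with KO above and 5 with KO below, beside 26.2% of all genes tested. Each of these 12 genes is among those named below, and 11 of them are genes that rose or fell. The remaining gene is Sf3b1.

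**Figure D1:**
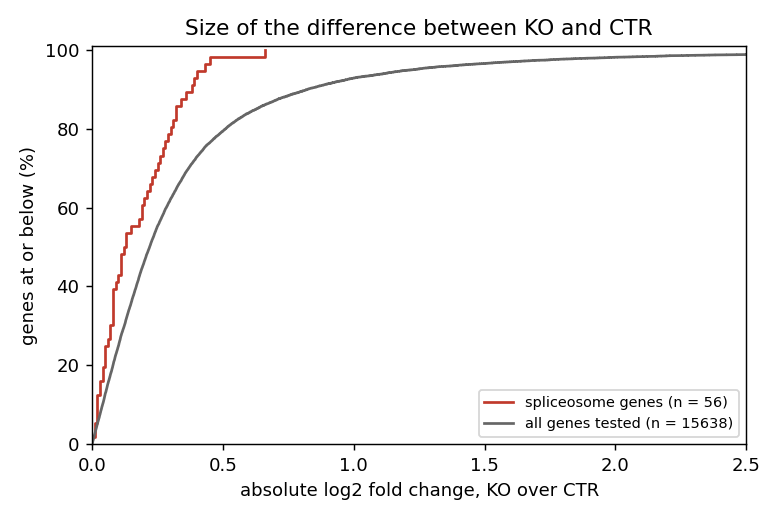
Cumulative share of genes (y axis, %) by absolute log2 fold change of KO over CTR (x axis, shown to 2.5), for the 56 spliceosome genes tested and for all 15638 genes tested. The spliceosome curve reaches its end at 0.66, while 7.14% of all genes lie at 1 or beyond. The sets are not matched for level.

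**Figure D2:**
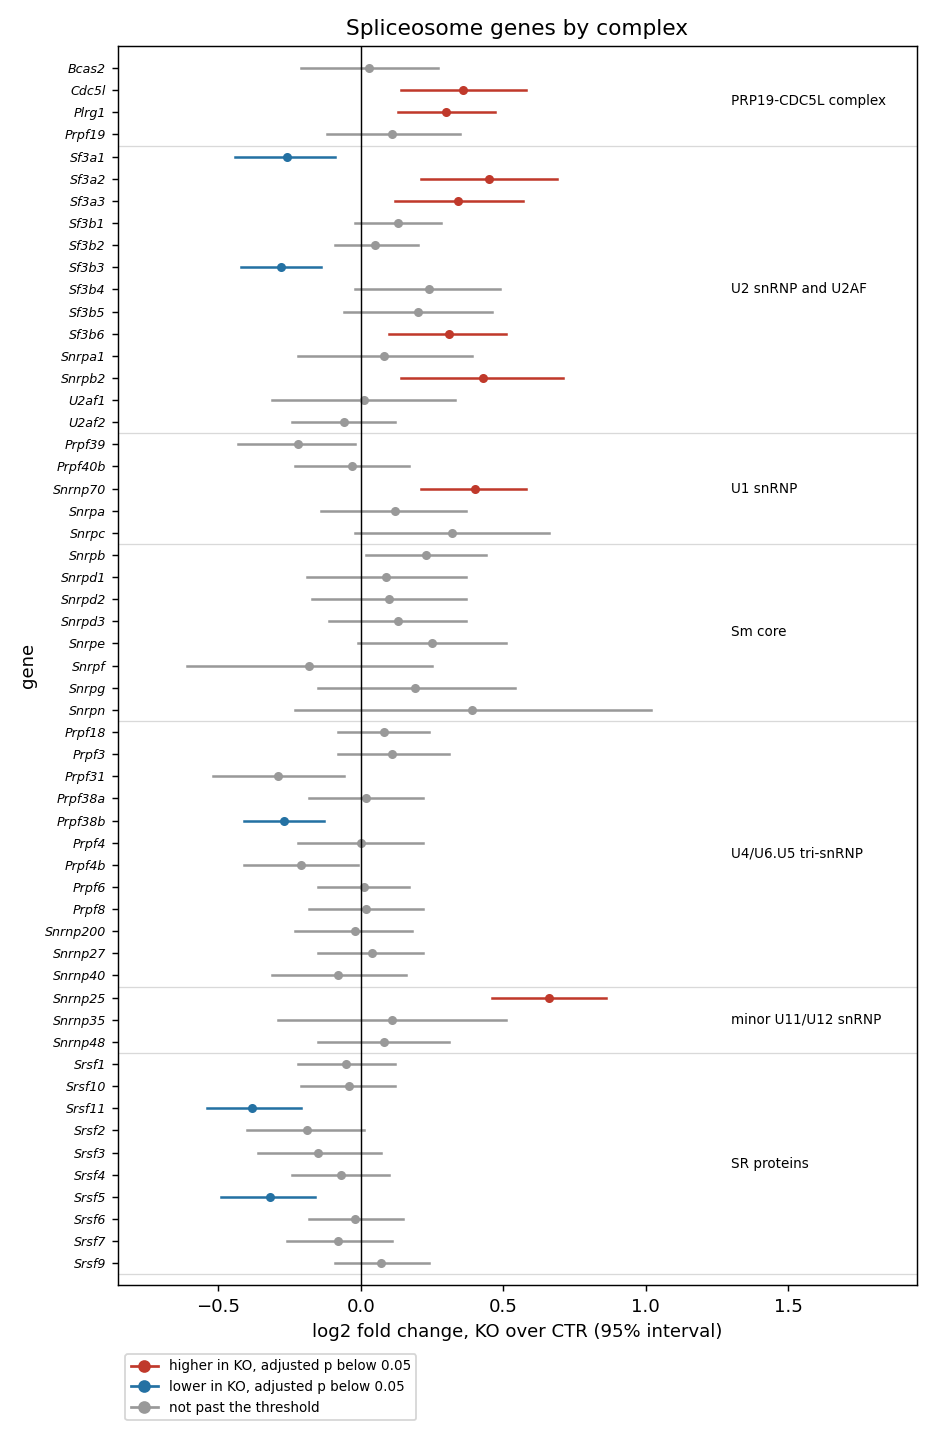
Log2 fold change of KO over CTR (x axis) with its 95% interval for 55 of the tested spliceosome genes (y axis), grouped by complex, with colours for genes that rose, fell or did not pass the threshold. Changed genes lie on both sides of 0 in the U2 group, and 9 of 10 SR protein genes lie below 0, of which Srsf10 and Srsf6 reach 0.02 under other settings.

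In the PRP19-CDC5L complex, which activates the assembled spliceosome, Cdc5l and Plrg1 rose and Prpf19 and Bcas2 did not pass the threshold. Cdc5l (ENSMUSG00000023932, chromosome 17) encodes the MYB-related protein that NIPP1 binds. It had 42.9, 39.4, 43.5 and 45.5 CPM in KO 1 to 4, against 39.3, 32.3, 32.5 and 28.9 CPM in CTR 1 to 4. Every KO library was above every CTR library, but KO 2 and CTR 1 lay close together, and the change was 1.29-fold (log2 fold change 0.36, SE 0.10, adjusted p = 0.0254). Without KO 4, CTR 2, CTR 3 or CTR 4 the Cdc5l call ended (adjusted p = 0.0570 to 0.0681).

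Plrg1 encodes a WD40-repeat protein that contacts CDC5L. It had 48.1, 49.1, 50.7 and 57.0 CPM in KO 1 to 4 and 39.6, 41.4, 40.8 and 44.2 CPM in CTR 1 to 4, again without overlap (1.23-fold, log2 fold change 0.30, SE 0.08, adjusted p = 0.0191). Its call ended without KO 4, CTR 1 or CTR 3 (adjusted p = 0.0529 to 0.0554). Prpf19, the ubiquitin ligase of the complex, had a mean of 132 ± 14.9 CPM in KO and 122 ± 14.6 CPM in CTR (SD, n = 4 each, adjusted p = 0.474). For Bcas2, a structural subunit, the 95% interval of the log2 fold change was -0.21 to 0.27.

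The 5′ end of Cdc5l is overlapped on the opposite strand by the noncoding gene B230354K17Rik, annotated as starting from a bidirectional promoter. This gene, which was looked at after its values were seen, had 13.4 ± 0.852 CPM in KO and 18.8 ± 2.72 CPM in CTR and fell (log2 fold change -0.49, adjusted p = 0.0134). The kit kept strand, but the strand setting of the counting is not given in the sources used here. The genome also holds 10 Cdc5l-like copies elsewhere, matching up to 2410 bases at up to 97.9% identity, which were not analysed here.

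Around U2, 4 of 13 genes rose and 2 fell (46.2% changed, beside the 23.7% of all genes), and the changes ran in both directions within SF3a and within SF3b. SF3a joins U2 as a complex of 3 proteins. Sf3a2 had 53.5, 48.4, 43.2 and 54.4 CPM in KO 1 to 4 and 37.1, 32.8, 33.2 and 42.7 CPM in CTR 1 to 4. It rose 1.37-fold (log2 fold change 0.45, SE 0.11, adjusted p = 0.0147), with KO 3 only just above CTR 4. Sf3a3 had 48.2, 40.6, 38.4 and 47.7 CPM in KO and 34.2, 35.1, 30.6 and 37.8 CPM in CTR, and rose 1.27-fold (adjusted p = 0.0320).

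Sf3a1, the scaffold subunit of SF3a, moved the other way. Its level was 67.8, 67.2, 69.5 and 72.5 CPM in KO 1 to 4 and 87.1, 73.4, 80.4 and 91.6 CPM in CTR 1 to 4, which is 1.2-fold lower in KO (log2 fold change -0.26, SE 0.08, adjusted p = 0.0350). All KO libraries were below all CTR libraries, by less than 1 CPM between KO 4 and CTR 2. The Sf3a3 call ended without KO 1, KO 4, CTR 1, CTR 2 or CTR 3 (adjusted p = 0.0647 to 0.0866). That of Sf3a1 ended without any single library other than CTR 2 (adjusted p = 0.0503 to 0.101) and with upper-quartile factors, no filter on low counts or a trend with exon length removed (adjusted p = 0.0539, 0.0732 and 0.0783). The Sf3a2 call was kept without each library in turn (adjusted p up to 0.0455). Sf3a2 is overlapped on the opposite strand by Plekhj1, which had 18.3 ± 1.68 CPM in KO and 17.9 ± 1.58 CPM in CTR (adjusted p = 0.848).

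Per length, the SF3a subunits were at near-equal levels in CTR libraries and at unequal levels in KO libraries. The ratio of Sf3a2 to Sf3a1, in normalised RPKM (CPM per kilobase of the exons of a gene), was 1.82, 1.67, 1.44 and 1.74 in KO 1 to 4 and 0.986, 1.03, 0.956 and 1.08 in CTR 1 to 4. That of Sf3a3 to Sf3a1 averaged 1.39 ± 0.150 in KO and 0.917 ± 0.0966 in CTR (SD, n = 4 each). Sf3a2 and Sf3a3 kept a ratio of 1.2 ± 0.0388 in KO and 1.11 ± 0.0910 in CTR. Lengths join the exons of all annotated transcripts, at 6147 bases for Sf3a1, 2658 for Sf3a2 and 2785 for Sf3a3. The trend with exon length described further on was not removed from these ratios. These pairs were picked after their levels were seen, so the ratios are a description and carry no test.

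**Figure D3:**
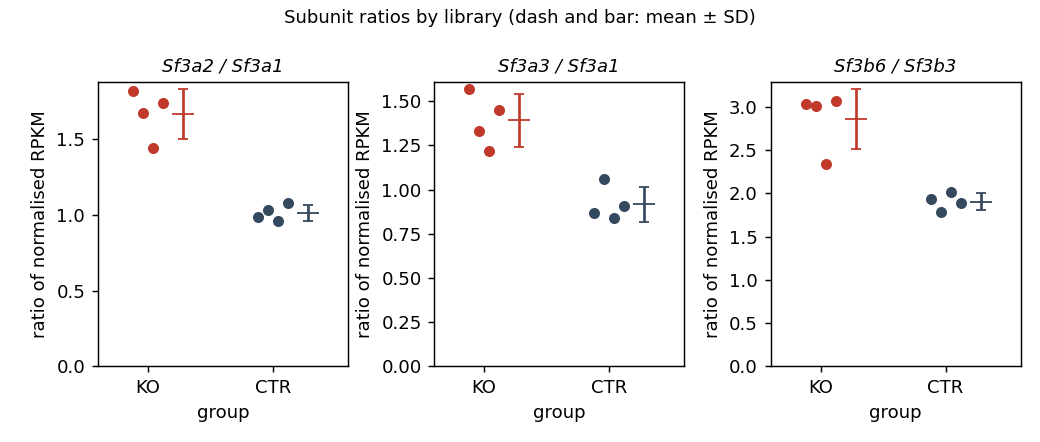
Ratios of normalised RPKM between subunit genes (y axes) in the 4 KO libraries and the 4 CTR libraries (x axes), with mean and SD beside the points. The Sf3a2 to Sf3a1 ratio was 1.44 to 1.82 in KO and 0.956 to 1.08 in CTR, and Sf3b6 to Sf3b3 averaged 2.86 in KO and 1.90 in CTR. Each ratio sets a shorter gene over a longer one, and the trend with exon length was not removed.

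SF3b grips the branch point through its largest subunit, SF3B1, the other NIPP1 ligand among the members. Sf3b1 had 316, 331, 341 and 331 CPM in KO 1 to 4, against 308, 311, 305 and 280 CPM in CTR 1 to 4. Its KO libraries were all above its CTR libraries, but the difference was 1.1-fold and missed the threshold (log2 fold change 0.13, SE 0.07, adjusted p = 0.176). Sf3b6, another SF3b gene, rose 1.24-fold (86.2 ± 9.10 CPM in KO and 69.7 ± 5.30 CPM in CTR, adjusted p = 0.0352). Its level in KO 3, at 73.4 CPM, lay inside the CTR range. Sf3b3, a scaffold subunit, was 1.21-fold lower, at 115, 109, 120 and 117 CPM in KO and 137, 134, 139 and 150 CPM in CTR (adjusted p = 0.0129).

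The Sf3b3 call held without each library in turn (adjusted p up to 0.0470) but ended with a trend with exon length removed (log2 fold change -0.15, adjusted p = 0.203), a setting described further on. Sf3b3 is overlapped on the opposite strand by Cog4, which had 49.3 ± 6.71 CPM in KO and 45.6 ± 3.35 CPM in CTR (adjusted p = 0.453). The Sf3b6 call ended without KO 1, KO 2, KO 4, CTR 1, CTR 2 or CTR 3 (adjusted p = 0.0601 to 0.0975). Sf3b2, Sf3b4 and Sf3b5 did not pass (adjusted p = 0.587, 0.161 and 0.244). Among the U2-specific proteins, Snrpb2, which binds the U2 RNA directly, rose 1.34-fold, with means of 28.4 ± 4.41 CPM in KO and 21.1 ± 2.62 CPM in CTR (adjusted p = 0.0350). KO 3, at 23.8 CPM, lay below CTR 3, at 24.4 CPM, and the call ended without KO 1, KO 2, KO 4, CTR 1, CTR 2 or CTR 4 (adjusted p = 0.0513 to 0.0815). Its partner Snrpa1 did not pass (adjusted p = 0.691). Nor did U2af2, which reads the polypyrimidine tract, or U2af1, which reads the intron end (log2 fold changes -0.06 and 0.01, with 95% intervals -0.24 to 0.12 and -0.31 to 0.33).

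In U1, 1 of 6 genes rose (16.7%, beside the 23.7% of all genes that changed). Snrnp70, the U1-70K protein that binds the first stem of U1 RNA, had 319, 301, 262 and 327 CPM in KO 1 to 4 and 238, 223, 220 and 238 CPM in CTR 1 to 4. The groups were well apart, and the change of 1.32-fold (log2 fold change 0.40, SE 0.08, adjusted p = 0.00846) held without each library in turn (adjusted p up to 0.0282). Snrpa and Snrpc, the other U1-specific proteins, had log2 fold changes of 0.12 and 0.32 and did not pass (adjusted p = 0.491 and 0.152). Prpf39 and Prpf40b, relatives of yeast U1 proteins, lay at -0.22 and -0.03 (adjusted p = 0.108 and 0.856). Without CTR 4, Snrpc and Prpf39 passed the threshold (adjusted p = 0.0496 and 0.0403).

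The Sm proteins form the ring that every spliceosomal snRNP other than U6 carries, and 0 of 8 Sm genes passed the threshold in edgeR, with 1 at an unadjusted p below 0.05 and 0 called by DESeq2 or limma-voom. Of the 8 log2 fold changes, 7 were positive, with a median of 0.16. Over all genes tested, 7757 of 15638 were positive, with a median of 0.0. Median exon length was 2014 bases for Sm genes and 3848 for all genes tested. With a trend with exon length removed, a setting described further on, 7 of the 8 were positive, with a median of 0.1. Snrpb, the most abundant per length, had 147, 127, 116 and 137 CPM in KO and 115, 97.4, 112 and 124 CPM in CTR, with overlap (log2 fold change 0.23, SE 0.10, adjusted p = 0.108). It passed the threshold without KO 3 (adjusted p = 0.0465). Snrpd3 averaged 59.2 ± 7.12 CPM in KO and 54.0 ± 6.22 CPM in CTR (SD, n = 4 each). The other log2 fold changes ran from -0.18 for Snrpf through 0.09 for Snrpd1, 0.10 for Snrpd2, 0.19 for Snrpg and 0.25 for Snrpe to 0.39 for Snrpn. Snrpn, a paralogue of Snrpb that is known mainly from brain, had only 171 counts over the KO libraries and 130 over the CTR libraries.

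Of 12 genes of the tri-snRNP group, 1 fell and 0 rose (8.33% changed, beside the 23.7% of all genes). The median log2 fold change was 0.01, and 6 values were above 0 and 6 below. Those of Prpf38a, Prpf4, Prpf6, Prpf8, Snrnp200 and Snrnp27 changed sign under some settings. Prpf8, the protein at the catalytic heart of the spliceosome, had 256, 278, 320 and 269 CPM in KO and 281, 278, 248 and 301 CPM in CTR (log2 fold change 0.02, 95% interval -0.18 to 0.22, adjusted p = 0.898). Snrnp200, the helicase that unwinds U4 from U6, lay at -0.02, with a 95% interval of -0.23 to 0.18. Prpf6, Prpf3, Prpf18, Snrnp27 and Prpf38a lay between 0.01 and 0.11 and Snrnp40 at -0.08, none past the threshold. Prpf4 had means of 33.2 ± 1.3 CPM in KO and 33.3 ± 4.65 CPM in CTR.

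Prpf38b, a relative of the assembly factor PRPF38A, was the gene that fell. It had 70.6, 72.2, 70.8 and 78.1 CPM in KO 1 to 4 and 86.0, 89.1, 90.6 and 85.4 CPM in CTR 1 to 4, well apart (1.2-fold lower, log2 fold change -0.27, SE 0.06, adjusted p = 0.0129), and the call held without each library (adjusted p up to 0.0427). Prpf31, which binds U4 RNA, was at -0.29 and missed the threshold (adjusted p = 0.0649), but passed it in DESeq2 (adjusted p = 0.0424) and in edgeR without CTR 2 (adjusted p = 0.0300). The kinase gene Prpf4b lay at -0.21 (adjusted p = 0.120, or 0.0424 without CTR 4).

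Snrnp25, one of the proteins particular to the U11/U12 particle that recognises the rare minor class of introns, changed most of all members. It had 32.9, 29.4, 25.5 and 28.4 CPM in KO 1 to 4, against 17.8, 18.8, 17.9 and 19.1 CPM in CTR 1 to 4. All KO libraries lay above all CTR libraries, and the rise was 1.58-fold (log2 fold change 0.66, SE 0.09, adjusted p = 0.00135), with 0.60 to 0.72 on the log2 scale without each library in turn. Snrnp35 and Snrnp48, of the same particle, did not pass (log2 fold changes 0.11 and 0.08, 95% intervals -0.29 to 0.51 and -0.15 to 0.31). The difference between the 3 genes was not tested.

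SR proteins bind exons through RNA recognition motifs and recruit the core machine through arginine-serine tails. Of 10 tested SR genes, 2 fell and 0 rose, and 9 of 10 log2 fold changes were below 0 (median -0.07). The values nearest 0 changed sign under some settings, over which Srsf10 lay between -0.09 and 0.02, Srsf6 between -0.04 and 0.02 and Srsf9 between -0.01 and 0.10. Srsf11, an SR-like protein, had 113, 116, 112 and 120 CPM in KO 1 to 4 and 161, 158, 145 and 134 CPM in CTR 1 to 4. The groups did not overlap, and the gene was 1.3-fold lower (log2 fold change -0.38, SE 0.07, adjusted p = 0.00618). Srsf5 had 182, 177, 153 and 176 CPM in KO and 213, 220, 224 and 204 CPM in CTR, and was lower by this test (log2 fold change -0.32, SE 0.08, adjusted p = 0.0132).

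Both calls held without each library in turn (adjusted p up to 0.0224 and 0.0389). A processed pseudogene of Srsf5, Gm12966, matches 810 bases at up to 99.0% identity and drew 8769 counts over the KO libraries and 9443 over the CTR libraries, beside 13367 and 16690 for Srsf5, and how reads that fit both were divided is not given in the sources used here. Srsf2, the most abundant member per length (85.5 normalised RPKM in KO and 97.8 in CTR), had a log2 fold change of -0.19 (adjusted p = 0.147). Srsf1, Srsf3, Srsf4, Srsf6, Srsf7 and Srsf10 lay between -0.15 and -0.02, and Srsf9 at 0.07, none past the threshold. Srsf12 was scarcely detected, with 20 counts over the KO libraries and 52 over the CTR libraries.

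**Figure D4:**
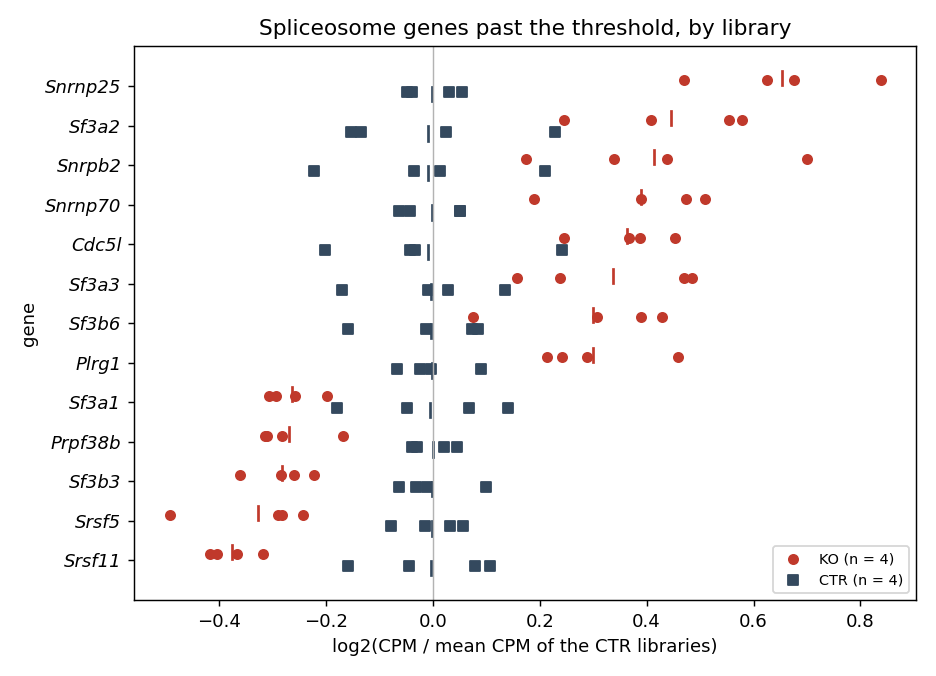
CPM of the 13 spliceosome genes that rose or fell (y axis), as log2 of the ratio to the mean of the CTR libraries (x axis), 1 point per library, KO circles above CTR squares, with short lines at the mean of each group's values. KO and CTR points overlap for Sf3b6 and Snrpb2 and are apart for the other 11 genes.

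Ranked per length over all libraries, Srsf2, Snrpb, Srsf6, Srsf5 and Srsf1 were the highest members and Srsf12, Snrpn, Snrpc, Snrnp48 and U2af1 the lowest. Snrpb had 66.7 normalised RPKM in KO and 56.8 in CTR, Srsf6 58.1 and 58.8, and Srsf5 43.2 and 54.0. U2af1 had 3.60 in KO and 3.59 in CTR. Exon length here joins the exons of all annotated transcripts, so genes with long minor transcripts read low on this scale. U2af1 also has a near-identical copy, described further on, and how shared reads were divided is not given in the sources used here.

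Shorter members tended to be higher in KO and longer members lower. Of 29 tested members with under 4000 bases of exon, 7 rose and 1 fell (median log2 fold change 0.12). Of 27 longer ones, 1 rose and 4 fell (median -0.02). Spearman's rho between exon length and log2 fold change was -0.47 across the 56 members and -0.19 across 15598 genes tested with a length, as a description over genes that share the same libraries. The same trend differed between libraries of 1 group: rho between length and the log2 deviation of a gene from its mean over libraries was -0.29, -0.10, 0.13 and -0.20 over all genes in KO 1 to 4, against 0.19, 0.30, 0.08 and -0.08 in CTR 1 to 4.

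**Figure D5:**
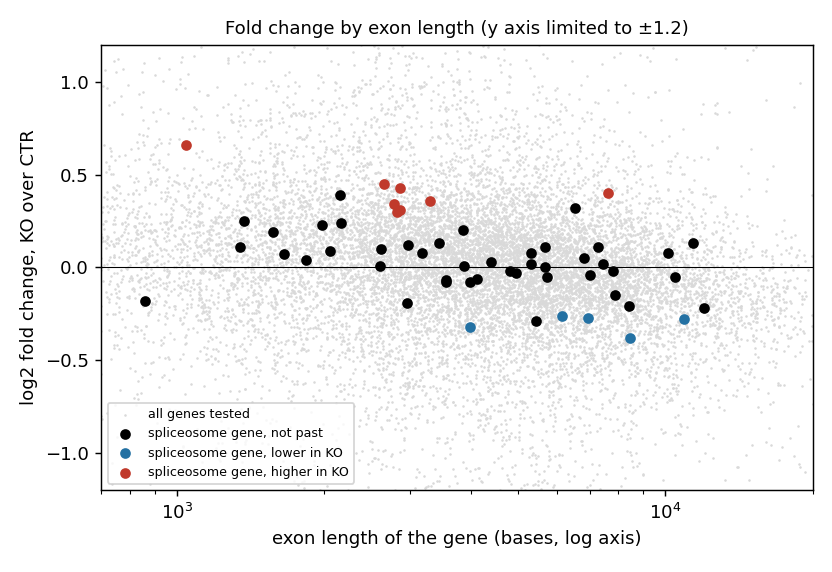
Log2 fold change of KO over CTR (y axis, limited to ±1.2) by exon length (x axis, log scale) for all genes tested and for the spliceosome genes, coloured by whether they rose, fell or did not pass. Of 8 genes that rose, 7 have under 4000 bases of exon, and of 5 that fell, 4 have more.

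An alternative chosen after seeing this trend removed it from each library before the test. Of the members, 13 were again past the threshold, 9 higher and 4 lower (beside 24.5% of all genes), and 11 of them were also called without the correction. Sf3a1 and Sf3b3 then missed the threshold (log2 fold changes -0.22 and -0.15, adjusted p = 0.0783 and 0.203). Sf3b1 rose in that fit, by 0.27 on the log2 scale (SE 0.06, adjusted p = 0.0110), and Srsf2 fell (-0.25, adjusted p = 0.0449). Snrnp25, Snrnp70, Sf3a2, Srsf5 and Srsf11 kept their calls, at 0.57, 0.48, 0.39, -0.34 and -0.28. With the trend removed, the U2 group had 5 genes higher and 0 lower of 13, and the SR group 0 higher and 3 lower of 10.

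Of the members, 7 lie on chromosome 4, which also holds Ppp1r8, and their chromosome therefore carries the null allele in KO mice and the wild-type allele in CTR mice. Srsf4 is 0.947 Mb from Ppp1r8 on GRCm38, Snrnp40 2.46 Mb, Srsf10 3.03 Mb and Sf3a3 8.11 Mb, followed by Prpf38a at 24.3 Mb, Prpf4 at 70.4 Mb and Srsf12 at 99.6 Mb. Of the 6 tested, Sf3a3 rose and the others did not pass. For Srsf4, the nearest, the log2 fold change was -0.07 (95% interval -0.24 to 0.10). Whether sequence linked to the null allele plays a part was not tested.

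Other splicing genes, in lists that the rule for members leaves out, also changed little in number. Of 154 tested, 14 rose and 14 fell (18.2%, beside 23.7% of all genes), with a median log2 fold change of 0.02. By direction, 11.5% of all genes tested rose and 12.2% fell, and these shares are the background for each list below. Among partners of PRP19, 3 of 14 rose and 0 fell: Cwc15 by 1.37-fold (adjusted p = 0.00473), the isomerase gene Ppie by 1.33-fold (adjusted p = 0.0209) and Bud31 by 0.32 on the log2 scale (adjusted p = 0.0246). Among other tri-snRNP genes, 4 of 12 rose and 0 fell, including Ik and Smu1, whose products work as a pair (log2 fold changes 0.35 and 0.32, adjusted p = 0.0116 and 0.0294), and Sart1 (1.22-fold, adjusted p = 0.0204).

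Of 8 LSM genes (Lsm1 to Lsm8), 1 rose, Lsm4, by 1.36-fold (adjusted p = 0.0231). In the minor spliceosome, 1 of 6 other genes rose, Rnpc3, a U11/U12 protein gene, with 18.5 ± 1.67 CPM in KO and 13.7 ± 0.838 CPM in CTR (1.35-fold, adjusted p = 0.0108). Other U2-associated genes had 1 of 9 higher, Puf60 (1.19-fold, adjusted p = 0.0471), and 2 lower, U2surp (1.2-fold, adjusted p = 0.0152) and the branch point binding gene Sf1 (1.18-fold, adjusted p = 0.0495). Of 11 spliceosomal helicase and GTPase genes and of 18 SR-related genes, 0 passed the threshold in edgeR, and 2 and 4 had an unadjusted p below 0.05.

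Of 7 tested genes for kinases that phosphorylate SR proteins, 3 fell and 0 rose, beside 12.2% and 11.5% of all genes tested. The list was not tested as a set. Srpk1, Srpk2, Clk2 and Dyrk1a lay between -0.06 and 0.02 on the log2 scale. Those that fell belong to the CLK family: Clk3 had 77.5 ± 10.3 CPM in KO and 129 ± 12.9 CPM in CTR (1.67-fold lower, adjusted p = 0.00170), Clk1 was 1.42-fold lower (adjusted p = 0.00698) and Clk4 1.27-fold lower (adjusted p = 0.0239). Among regulators of alternative splicing known in epithelia and elsewhere, 4 of 15 fell and 1 rose, beside the same 12.2% and 11.5%. Rbm5 had 68.3 ± 6.0 CPM in KO and 115 ± 7.73 CPM in CTR (adjusted p = 0.000513). Tia1, which promotes use of weak intron starts, had 35.2 ± 0.459 and 53.2 ± 4.84 CPM in KO and CTR (adjusted p = 0.00113), and the epithelial regulator Esrp2 had 189 ± 23.3 and 267 ± 10.2 CPM (adjusted p = 0.00472).

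Of 27 hnRNP genes, which encode RNA-binding proteins that often oppose SR proteins, 1 rose, Hnrnpa3 (1.3-fold, adjusted p = 0.0185), and 2 fell, Hnrnpa1, a gene known for its many processed copies, and Hnrnpr (1.48-fold and 1.24-fold, adjusted p = 0.00985 and 0.00802). Of 12 genes listed for the loading of Sm rings, 1 fell, the snRNA-binding gene Gemin5 (24.2 ± 1.4 CPM in KO and 35.2 ± 3.11 CPM in CTR, adjusted p = 0.00261). That list joined genes of the SMN complex with Prmt5, Wdr77 and Clns1a. Of 15 exon junction and nonsense-mediated decay genes, 2 rose, Upf3a and Smg9 (adjusted p = 0.0368 and 0.0492), and 2 fell, the kinase gene Smg1 among them (adjusted p = 0.0427). Of NIPP1, PP1 and other NIPP1 ligands, 2 of 8 fell, Ppp1cc (1.32-fold lower, adjusted p = 0.0166) and the Polycomb methyltransferase gene Ezh2 (1.21-fold lower, adjusted p = 0.0334).

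Of these 26 changed genes outside the members, 11 kept their calls without each library in turn: Clk1, Clk3, Cwc15, Esrp2, Gemin5, Hnrnpa1, Hnrnpr, Ik, Rbm5, Rnpc3 and Tia1. The other 15 lost theirs without at least 1 library, with adjusted p between 0.0501 and 0.130. With no filter on low counts, Sf1, Puf60, Smg9, Upf3a and Ezh2 missed the threshold (adjusted p = 0.0931, 0.0654, 0.0566, 0.0521 and 0.0656). Upper-quartile factors ended the calls of Sf1 and Ezh2 (0.0708 and 0.0510), library totals that of Sf1 (0.0573) and limma-voom that of Smg9 (0.0547). With the length trend removed, Hnrnpr, U2surp, Ezh2, Sf1, Smg1 and Smg9 missed the threshold (adjusted p = 0.749, 0.507, 0.0856, 0.109, 0.0597 and 0.0502).

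Markers of cell state and of other cell types differed between the groups beside these results. Over all genes tested, 11.5% were higher and 12.2% lower. Of 12 keratinocyte markers, 3 were higher (Krt1, Krt10 and Lor, genes of differentiating layers) and 2 lower (Krt15 and Itgb4, genes of the basal layer), with a median log2 fold change of -0.02. The other basal genes listed, Krt5, Krt14 and Trp63, did not pass the threshold, nor did Krtdap, Dsp, Perp and Sfn. Krt1 changed most and had 18400 ± 4850 CPM in KO and 2490 ± 430.0 CPM in CTR (SD, n = 4 each, adjusted p = 9.43e-05). Hair follicle markers had 13 of 14 lower and 0 higher, with summed levels of 443 to 3050 CPM in KO and 5310 to 9850 CPM in CTR. Langerhans and myeloid cell markers had 6 of 8 tested higher and 0 lower (187 to 272 CPM in KO and 99.7 to 154 CPM in CTR), with Adgre1 and Lyz2 below 1 CPM in every library. Among tested markers of T and natural killer cells, 3 of 5 were higher and 1 was lower (27.9 to 36.9 CPM and 22.2 to 34.5 CPM), and Cd3g, Cd3d, Trac, Cd2 and Nkg7 were below 1 CPM throughout. Melanocyte markers had 4 of 7 higher and 1 lower (323 to 544 CPM in KO and 239 to 352 CPM in CTR). No listed marker was at 0 in all libraries. Proliferation markers had 1 of 12 higher and 0 lower (604 to 692 CPM in KO and 563 to 688 CPM in CTR). Fibroblast and endothelial or muscle markers had 0 changed of 4 and of 2 tested. The part of these cells in the splicing gene changes was not tested.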

How the data were processed

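Poly-A RNA from tail epidermis of 4 KO and 4 CTR mice was sequenced with a stranded kit, per the labels' protocols. The authors deposited 1 table of raw counts per Ensembl gene. The submitters' processing notes name cutadapt 1.7.1, STAR 2.4.1d, featureCounts 1.4.6 and edgeR 3.8.6, among other tools, and build GRCm38. The annotation release and the strand setting of the counting are not given in the sources used here. Identifiers were matched to GENCODE M21 without their version (46488 of 46983). Replicates are separate mice, numbered within each group in accession order, and no pair of libraries of 1 group agreed within sampling noise (chi-square per degree of freedom 14.2 to 60.5).

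Counts were tested with edgeR 4.0.16 (TMM factors, default filter on low counts, quasi-likelihood test, group as the only term) in R 4.3.3, with a threshold of 0.05 on the Benjamini-Hochberg adjusted p. The procedure was tested on simulated data without a trend with exon length. Its pass was set on changes larger than that of any member. The share of smaller changes that it recovers is not given here. Values are CPM ± SD over libraries of 16696212 to 21571935 counts, and the spread between libraries exceeded sampling noise. Near-identical copies are annotated transcripts of other genes with at least 97% identity over at least 75 bases. Alternatives were other scaling factors, filters, DESeq2 1.42.0, limma-voom (limma 3.58.1), a robust fit, keratin genes left out, and each library left out. Named genes were Ppp1r8, Cdc5l, Sf3b1, every member past the threshold, the most abundant members of complexes with fewer than 2 of these, members on chromosome 4, and up to 3 changed genes of each other splicing list. Other members were added to describe their complexes; 1 member is counted but not reported by itself here. Members and lists were chosen with earlier results of these data known.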

Additional observations from a re-analysis of the deposited data

Results flagged for a closer look

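Of 104 groups of 4 libraries examined, 1 held a library far from the other three. Smg9, a subunit gene of the kinase complex of nonsense-mediated decay, had 24.1 CPM in CTR 4, against 18.7 to 19.7 CPM in CTR 1 to 3, while its KO libraries lay at 22.3 to 29.9 CPM. Chance alone places about 1 in 20 groups past this limit.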

How the results depend on the processing

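No paired analysis was run, because the labels give no replicate numbers shared by KO and CTR. The mouse numbers of KO and CTR animals lie close together, but no label says that neighbours are littermates, and a shared litter was not tested. Over the alternatives other than leaving out a library, 12 to 14 spliceosome genes passed the threshold. The share of all genes was 23.6% to 27.5% in these fits, except with no filter on low counts. That fit also tested genes with low counts, 26685 genes in all, of which 13.6% passed, beside 21.1% of members. Over the fits without 1 library, 7 to 13 spliceosome genes passed (16.3% to 27.6% of all genes), with 3 to 9 higher and 4 to 6 lower. Calls that ended or were gained are given in the report. Prpf4, at 0.00 on the log2 scale, turned to 0.02 with library totals, 0.02 with upper-quartile factors, 0.0 with no filter, 0.01 with limma-voom and 0.03 with the length trend removed, which also turned Srsf10 to 0.02. Without 1 library each, Prpf4 ranged over -0.06 to 0.09, Prpf38a over -0.02 to 0.07, Prpf8 over -0.05 to 0.07 and Ppp1r8 over -0.21 to 0.05. None of these 5 genes passed the threshold in any of these fits, and the cause of the sign changes was not tested. Depth limits Snrpn and Srsf12 most, the members with the fewest counts.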

Other observations

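Several short spliceosome genes have processed copies in the genome that drew about as many counts as the gene or more. Gm10232, 99.7% identical to U2af1 over 720 bases, had 1478 counts over the KO libraries and 1463 over the CTR libraries, against 727 and 717 for U2af1. The copy of Snrpe had 1987 counts in KO and 1674 in CTR, against 1324 and 1109 for Snrpe. That of Snrpf had 2222 in KO and 2308 in CTR, against 855 and 973 for Snrpf. For Snrpg, a copy had 1479 counts in KO and 1377 in CTR, against 1513 and 1332 for the gene. In all, 15 of the 57 genes have a near-identical copy of any kind, most of which drew fewer counts than the gene or were not analysed here. These include Bcas2, whose matches are stretches of 85 to 177 bases in Xaf1, Dnajb14 and Gm4419, none annotated as a processed copy.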
